A study of Gallus gallus with 10 samples.

Results

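Kidneys of broiler chickens fed 0.8% Ca were compared with kidneys of broiler chickens fed 1.0% Ca, the lowest and the middle of 3 dietary Ca levels. All birds were sampled at 21 days post-hatch, and all diets held 0.35% non-phytate phosphorus and 1000 FTU/kg of phytase, an enzyme that frees phosphorus from plant feed. The lower level had 3 birds (replicates 1, 3 and 4) and the middle level had 4 (replicates 1 to 4), with 1 RNA-seq library per bird. The birds had been picked for a body weight near the mean of their diet, so they do not show the full spread of a flock. The question was which kidney genes differ in RNA level between these diets. Of 17108 genes counted, 12187 had enough counts to be tested, and these are the genes compared here.

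The avian kidney takes back Ca and phosphate from the filtered urine under the control of parathyroid hormone and vitamin D. A diet richer in Ca lowers the demand for the recovery of Ca. The organ also clears uric acid, sets salt and water balance and takes part in blood pressure control through renin. Bulk kidney RNA holds transcripts of tubule, vessel, ureter lining, connective tissue and immune cells together. Fewer cells of a type and less RNA per cell cannot be told apart in such data.

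The 7 libraries held between 6176553 and 7461321 counted fragments, so 1 CPM, the unit of level used here (counts scaled to a common library size with the TMM method), stood for 6.13 to 7.33 fragments. Lane 2 of the sequencer carried every library at 0.8% Ca together with replicates 3 and 4 at 1.0% Ca, while lane 1 carried replicates 1 and 2 at 1.0% Ca. Replicate 1 at 0.8% Ca and replicate 3 at 1.0% Ca stood farthest from the other libraries. Their median squared count difference per gene from the others was 20.2 and 20.1 times that of counting error, against 11.9 to 17.6 for the other 5 libraries. Only 179 of the tested genes have a name here, nearly all of them genes that the study had called on these same libraries. Lists of Ca and phosphate transporters (31 genes), of Ca hormones and sensors (22) and of proximal tubule (16), distal tubule (12) and glomerulus markers (7) had 0 members matched by name. The kidney label and the Ca-handling genes were therefore not examined by named genes.

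Across all genes the difference between the diets was small. By the edgeR quasi-likelihood test, 0 of 12187 genes (0%) passed an adjusted p under 0.05, the smallest adjusted p being 0.0973. At an unadjusted p under 0.05, 322 genes (2.64%) were higher and 712 genes (5.84%) were lower at 1.0% Ca, 8.48% in all. With upper-quartile scaling these counts were 202 and 869. Among the 179 genes with a name, 16 were higher and 28 lower at an unadjusted p under 0.05, larger shares than over all genes. The gene lists below hold only genes with a name, so the shares of all genes given beside them are not a like background. The likelihood ratio test on the same model called 22 genes (0.181%), of which 4 (0.0328%) rose and 18 (0.148%) fell at 1.0% Ca. The study used this test for association across its 3 Ca levels. Its own calls and table for this pair of diets came from cuffdiff, another program. Limma-voom called 0 genes and DESeq2 called 31. The middle 90% of log2 fold changes lay between -0.56 and 0.42, the median over all genes was 0.01, and 200 genes differed by more than 1 log2 unit. The groups did not overlap in CPM for 1241 genes (10.2%), 426 higher (3.5%) and 815 lower (6.69%) at 1.0% Ca. The count of likelihood ratio calls varied with the bird left out. It was 3, 9 and 14 without replicates 1, 3 and 4 at 0.8% Ca. Without replicates 1 to 4 at 1.0% Ca it was 18, 16, 17 and 3. Without replicates 1 to 3 at 1.2% Ca, which share the spread estimate, it was 50, 17 and 47.

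With lane 2 libraries only, 3 at 0.8% Ca against 2 at 1.0% Ca, the quasi-likelihood test again called 0 of 12056 genes (0%), with 366 higher (3.04%) and 728 lower (6.04%) at an unadjusted p under 0.05, 9.07% in all. The likelihood ratio test called 90 (0.747%), 45 in each direction, and these held 8 of the 22 genes called with all libraries. Within 1.0% Ca, lane 1 against lane 2 gave 0 quasi-likelihood calls, 1 likelihood ratio call (0.00821%), lower in lane 1, and 903 genes (7.41%) with an unadjusted p below 0.05, of which 355 (2.91%) were higher in lane 1 and 548 (4.5%) were lower there. In the comparison with all 7 libraries diet and lane are mixed in part, since every bird at 0.8% Ca is of lane 2. Fold changes against lane 2 birds are given below for some genes only, and those of other genes departed from the main value as well. The log2 fold change of F13A1 was -0.67 in the lane 2 libraries against -1.09 with all libraries. That of FABP4 was 1.77 against 2.34, and that of TLR3 was 0.97 against 0.68.

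The largest fold change among the 12187 genes was that of DPP6, which encodes an inactive relative of dipeptidyl peptidases that is a partner subunit of voltage-gated potassium channels (ENSGALG00000006314, Galgal4 chromosome 2, 7411564 to 7635852, plus strand). Its level at 0.8% Ca was 0.976, 2.69 and 1.96 CPM in replicates 1, 3 and 4. At 1.0% Ca it was 63.4, 59.3, 59.9 and 39.8 CPM in replicates 1 to 4. The groups lay far apart, with the lowest bird at 1.0% Ca above the highest at 0.8% Ca by more than 10 times. DPP6 rose by a log2 fold change of 4.86 ± 1.18 (SE; adjusted p = 0.0401 by the likelihood ratio test and 0.362 by the quasi-likelihood test). In the lane 2 libraries the log2 fold change was 4.71 (likelihood ratio adjusted p = 1.22e-28, quasi-likelihood 0.112). In the 7 fits that left out 1 of the compared birds the log2 fold change stayed between 4.58 and 5.20, while the likelihood ratio adjusted p lay between 0.0698 and 0.314, above 0.05 in each. In the fit without the birds at 1.2% Ca, where the gene stood at 1.21, 39.2 and 0.639 CPM, the quasi-likelihood adjusted p was 0.00215. Leaving out replicate 2 at 1.2% Ca alone gave 0.00069, and over all alternatives with a value it lay between 0.00069 and 0.827. The level at 1.2% Ca was low in replicates 1 and 3 and high in replicate 2, so it did not follow the Ca content of the diet.

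Signalling genes ADCY7 and Enpp2 also rose at 1.0% Ca. ADCY7, an adenylate cyclase that makes cyclic AMP (ENSGALG00000003837, chromosome 11, 6010767 to 6037599, minus strand), was at 211, 231 and 216 CPM at 0.8% Ca and at 313, 382, 305 and 421 CPM at 1.0% Ca. All birds at 1.0% Ca lay above all birds at 0.8% Ca (log2 fold change 0.70 ± 0.13, likelihood ratio adjusted p = 0.00678, quasi-likelihood 0.262). Enpp2, which encodes autotaxin, the secreted enzyme that makes lysophosphatidic acid (ENSGALG00000016428, chromosome 2, 136104592 to 136163574, minus strand), was at 79.4, 125 and 117 CPM at 0.8% Ca. At 1.0% Ca it was at 191, 228, 196 and 174 CPM, again without overlap (log2 fold change 0.88 ± 0.21, likelihood ratio adjusted p = 0.0401). The fourth gene that rose, ENSGALG00000004559, carries no name here and went from 26.9 ± 1.4 CPM (SD, n = 3) to 38.5 ± 0.73 CPM (SD, n = 4).

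Of the 18 genes that fell, PGC had one of the smallest p-values. PGC encodes pepsinogen C, the precursor of an acid protease best known from the stomach (ENSGALG00000028489, chromosome 26, 4976148 to 4979037, minus strand). It was at 30.4, 16.4 and 25.1 CPM at 0.8% Ca and at 8.31, 10.9, 8.01 and 10.1 CPM at 1.0% Ca. The groups did not overlap, and the spread at 1.0% Ca was narrow (24.0 ± 7.1 CPM, n = 3, against 9.32 ± 1.4 CPM, n = 4, SD). PGC fell by 1.36 ± 0.21 on the log2 scale (likelihood ratio adjusted p = 0.000221, quasi-likelihood 0.188), and by 1.40 against lane 2 birds. PGC and the unnamed gene ENSGALG00000027902 were the only 2 genes that the likelihood ratio test called in all 7 fits that left out 1 of the compared birds. ENSGALG00000027902 (chromosome 18, 10145914 to 10147671, minus strand) was at 56.8, 65.3 and 64.2 CPM at 0.8% Ca and at 36.2, 36.1, 36.7 and 36.4 CPM at 1.0% Ca, a range of 0.6 CPM over 4 birds. It fell by 0.77 ± 0.09 on the log2 scale (likelihood ratio adjusted p = 2.05e-05, quasi-likelihood 0.0973).

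**Figure D1:**
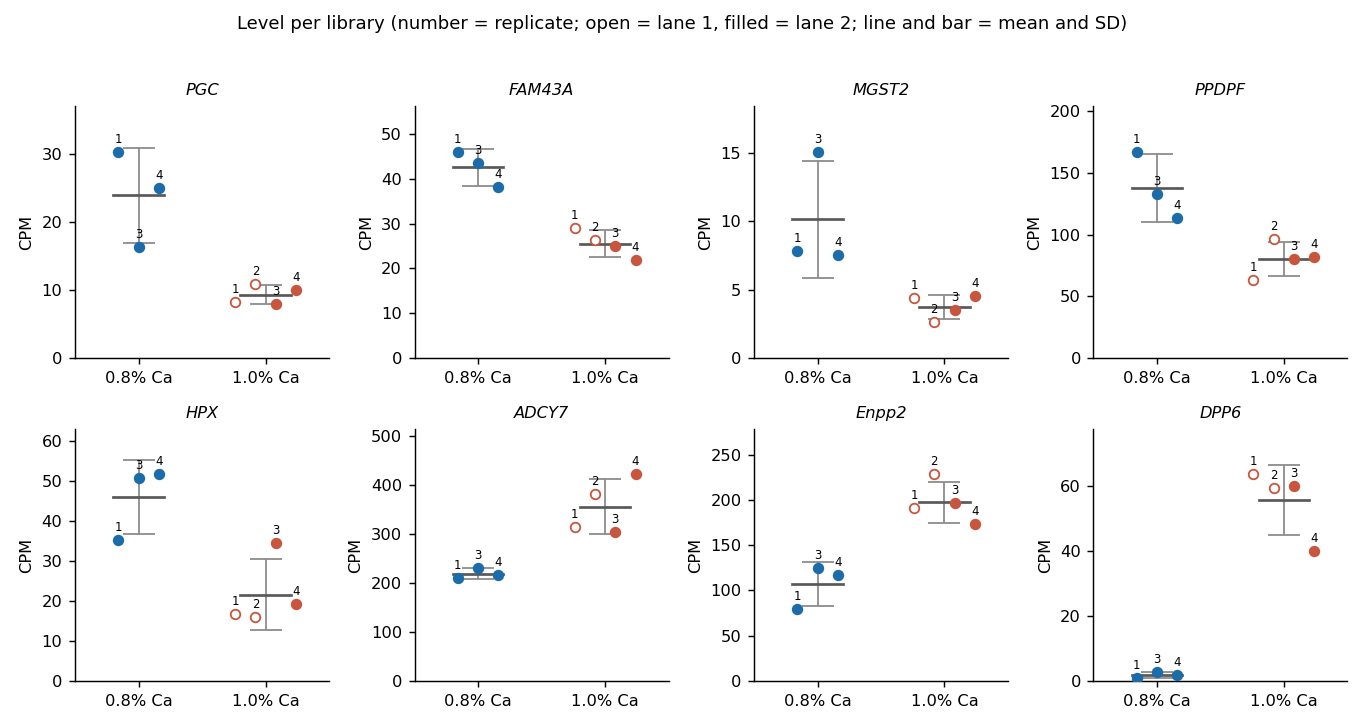
Level in CPM (vertical axes from 0) of 8 named genes in each library at 0.8% Ca and 1.0% Ca; points are birds with their replicate number, open points lane 1, lines and bars the mean and SD. The groups do not overlap in any panel, DPP6 lies at or below 2.69 CPM in all birds at 0.8% Ca and at or above 39.8 CPM in all birds at 1.0% Ca, and HPX, the hemopexin gene, was just outside the likelihood ratio threshold.

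MGST2, a microsomal glutathione transferase (chromosome 4, 28831982 to 28841789), was at 7.81, 15.1 and 7.56 CPM at 0.8% Ca and at 4.40, 2.65, 3.48 and 4.499 CPM at 1.0% Ca. Replicate 3 was well above the other birds at 0.8% Ca, and the groups stayed apart. The log2 fold change was -1.43 ± 0.30 (likelihood ratio adjusted p = 0.0297). FAM43A (chromosome 9, 12291916 to 12293004) was at 46.0, 43.4 and 38.1 CPM at 0.8% Ca and at 29.0, 26.4, 24.9 and 21.8 CPM at 1.0% Ca. It fell by 0.74 ± 0.12 with all libraries and by 0.86 with lane 2 libraries (likelihood ratio adjusted p = 0.00262 and 0.00907). PPDPF, named for pancreatic progenitor differentiation and proliferation, was at 167, 133 and 113 CPM at 0.8% Ca and at 63.4, 96.5, 80.0 and 82.2 CPM at 1.0% Ca, a fall of 0.77 ± 0.17. The first of 2 counted genes at the locus the study names RPS29, for a protein of the small ribosomal subunit, fell by 0.68 ± 0.10 from 81.6 ± 4.8 to 51.0 ± 2.8 CPM. Which of these 2 genes the name belongs to is uncertain, and reads could be shared between near-identical ribosomal protein copies.

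The 14 called genes without a name here included the largest fall, that of ENSGALG00000028154 (log2 fold change -1.77 ± 0.36). It was at 5.20, 9.85 and 6.30 CPM at 0.8% Ca and at 2.61, 1.67, 2.27 and 1.77 CPM at 1.0% Ca. The 18 genes that fell had log2 fold changes from -1.77 to -0.47, from -1.81 to -0.46 in the lane 2 libraries and from -1.73 to -0.42 for the lane 1 birds at 1.0% Ca. ENSGALG00000022850 is an example of a smaller fall, with 41.8, 44.2 and 40.6 CPM at 0.8% Ca and 28.7, 28.3, 28.6 and 27 CPM at 1.0% Ca. The groups did not overlap in any of the 22 genes (10.2% of all genes had no overlap), which the choice of genes by a test on the same birds largely fixes. Between lanes within 1.0% Ca, 1 of the 22 differed at an unadjusted p under 0.05 (7.41% of all genes did).

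HPX and TF, both genes of iron and heme transport, were lower at 1.0% Ca at an unadjusted p under 0.05, and neither passed an adjusted test. HPX, which encodes hemopexin, the plasma protein that binds free heme, was at 35.3, 50.9 and 51.6 CPM at 0.8% Ca and at 16.6, 15.9, 34.6 and 19.2 CPM at 1.0% Ca. Replicate 3 at 1.0% Ca came within 1 CPM of replicate 1 at 0.8% Ca, and the others were clearly apart. The log2 fold change was -1.09 ± 0.27 (likelihood ratio adjusted p = 0.0581), with -0.77 against lane 2 birds and -1.50 against lane 1 birds. TF, the gene of the iron-binding plasma protein transferrin, was at 245, 238 and 201 CPM at 0.8% Ca and at 149, 170, 202 and 143 CPM at 1.0% Ca, with replicate 3 at 1.0% Ca just above the lowest bird of the other group (log2 fold change -0.46 ± 0.12, likelihood ratio adjusted p = 0.18). These were the 2 of 14 listed genes that could be measured by name, a list too short to set against the 5.84% of all genes.

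Of 8 genes for secreted and surface proteins of lining epithelia measured by name out of 10, 3 were lower and 0 higher at an unadjusted p under 0.05 (5.84% and 2.64% of all genes were), and PGC fell by the likelihood ratio test. The median log2 fold change was -0.25, and 5 of the 8 were in the study's own table for this comparison, so the count is not independent evidence. PSCA, a small membrane-anchored protein, was at 1069, 676 and 649 CPM at 0.8% Ca and at 306, 599, 253 and 328 CPM at 1.0% Ca. All 4 birds at 1.0% Ca lay below every bird at 0.8% Ca, and replicate 2, of lane 1, came closest to them. Its log2 fold change was -1.10 ± 0.33 (likelihood ratio adjusted p = 0.133) and -1.46 in lane 2 libraries, where it fell by the likelihood ratio test (adjusted p = 0.000279). UPK1B, a uroplakin of the urinary tract lining, was at 17.2, 13.7 and 15.95 CPM at 0.8% Ca and at 4.56, 10.9, 9.22 and 7.499 CPM at 1.0% Ca (log2 fold change -0.95 ± 0.37). Of the 8, 4 had a positive log2 fold change, up to 0.76, and none of these passed with all libraries. Among them, the mucin gene MUC13 had a log2 fold change of 0.70 ± 0.44. It was at 70.9, 69.7 and 106 CPM at 0.8% Ca and at 50.2, 90.8, 167 and 227 CPM at 1.0% Ca. Its high values at 1.0% Ca were those of lane 2, and its log2 fold change was 1.26 for lane 2 birds and -0.22 for lane 1 birds. In the lane 2 libraries MUC13 rose by the likelihood ratio test (adjusted p = 0.000537). The birds at 1.2% Ca, all of lane 1, were at 140, 148 and 84.1 CPM.

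All 12 measured members of a list of 37 myeloid and lymphoid genes had negative log2 fold changes, from -1.88 to -0.34 with a median of -0.81, beside 0.01 over all genes. By test, 4 of 12 were lower at an unadjusted p under 0.05 (5.84% of all genes and 28 of the 179 genes with a name were). None was higher, and 0 passed the likelihood ratio or the quasi-likelihood test. The study called 6 of them for this comparison, so their direction is not independent evidence. In 10 of the 12 the highest library was replicate 1 at 0.8% Ca (17.4% of all genes). The summed level was 1243, 700 and 775 CPM at 0.8% Ca and 530, 426, 783 and 520 CPM at 1.0% Ca, so that replicate 3 at 1.0% Ca lay among the birds at 0.8% Ca. Without replicate 1 at 0.8% Ca the median was -0.60. Listed genes of heterophils, the avian counterpart of neutrophils, showed no such order, with 3 of 16 measured, a summed level of 88.9 to 210 CPM at 0.8% Ca and 123 to 289 CPM at 1.0% Ca, and 0 at an unadjusted p under 0.05.

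IL2RG, the common gamma chain of several interleukin receptors, was at 72.1, 58.2 and 46.9 CPM at 0.8% Ca and at 35.2, 37.3, 34.8 and 31.1 CPM at 1.0% Ca. The 4 birds at 1.0% Ca were close together and below every bird at 0.8% Ca (log2 fold change -0.77 ± 0.21, likelihood ratio adjusted p = 0.132). GILT, a lysosomal thiol reductase used in antigen processing, was at 133, 106 and 87.9 CPM at 0.8% Ca and at 60.0, 51.2, 74.7 and 53.4 CPM at 1.0% Ca. CCL20, a chemokine for lymphocytes and dendritic cells, was at 16.6, 27.6 and 17.49 CPM at 0.8% Ca and at 8.80, 16.5, 11.6 and 9.68 CPM at 1.0% Ca. Its groups were separated by only 0.1 CPM. IL22RA2, a soluble decoy receptor for interleukin 22, was low everywhere, at 1.63 to 5.04 CPM against 0.136 to 1.81 CPM, and the groups overlapped. The unconventional myosin MYO1F, a gene of leukocytes, had its largest value, 119 CPM, in replicate 1 at 0.8% Ca, with 72.9 and 83.5 CPM in the other 2 birds and 54.0 to 65.6 CPM at 1.0% Ca. F13A1, a coagulation factor subunit made by macrophages, shows how far 1 bird could set a value. It was at 291 CPM in replicate 1 at 0.8% Ca, at 56.2 and 133 CPM in the other 2, and at 35.9 to 137 CPM at 1.0% Ca. Its log2 fold change went from -1.09 to -0.33 without that bird.

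Lipid-binding proteins showed no common direction. Of 6 members measured out of 21, 1 was higher and 1 lower at an unadjusted p under 0.05 (2.64% and 5.84% of all genes were), and 3 were in the study's table for this comparison. Ex-FABP, a lipocalin that binds fatty acids and bacterial iron carriers in chicken, was at 1132, 865 and 438 CPM at 0.8% Ca and at 194, 300, 364 and 293 CPM at 1.0% Ca. The groups did not overlap, although replicate 4 at 0.8% Ca was near the top of the other group (log2 fold change -1.49 ± 0.55, likelihood ratio adjusted p = 0.331, and -1.18 without replicate 1 at 0.8% Ca). PTGDS, the lipocalin-type prostaglandin D synthase gene, lies within 5 kb of it on the same strand of chromosome 17 (Ex-FABP at 501842 to 504845, PTGDS at 509034 to 511024). It was at 120, 94.6 and 27.6 CPM at 0.8% Ca and at 37.98, 56.4, 15.9 and 35.5 CPM at 1.0% Ca, with overlap through replicate 4 at 0.8% Ca. FABP4, the adipocyte fatty acid-binding protein, was scarce but apart, at 0.325, 0.448 and 1.399 CPM against 5.87, 4.33, 2.12 and 2.999 CPM (log2 fold change 2.34 ± 0.96). The other adipocyte marker with a name, LPL, was at 49.0 to 108 CPM at 0.8% Ca and 35.2 to 79.7 CPM at 1.0% Ca, and adipocyte content was not tested further. PLPP4, a phosphatase of lipid phosphates, was at 2.28, 3.13 and 3.64 CPM against 4.24, 17.0, 8.46 and 10.1 CPM, and it rose in the lane 2 libraries by the likelihood ratio test (adjusted p = 0.0111).

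**Figure D2:**
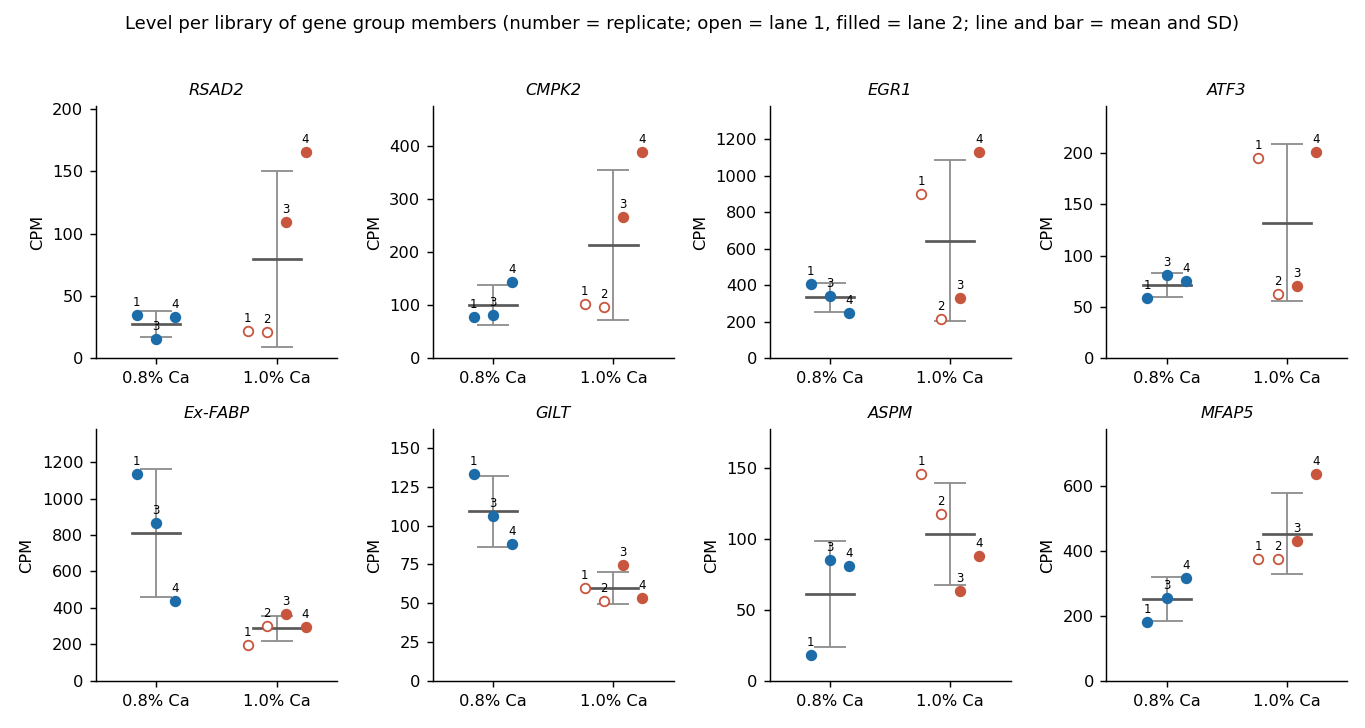
Level in CPM (vertical axes from 0) of 8 members of the gene lists in each library at 0.8% Ca and 1.0% Ca; points are birds with their replicate number, open points lane 1, lines and bars the mean and SD. RSAD2 and CMPK2 are high in replicates 3 and 4 at 1.0% Ca alone, EGR1 and ATF3 in replicates 1 and 4, and ASPM is lowest in replicate 1 at 0.8% Ca.

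Interferon-induced genes split the birds at 1.0% Ca by lane. All 10 measured members of a list of 33 had positive log2 fold changes, from 0.52 to 1.52 with a median of 0.69. All 10 were highest in replicate 4 at 1.0% Ca (12.4% of all genes were). By test, 3 of 10 were higher at an unadjusted p under 0.05 (2.64% of all genes and 16 of the 179 genes with a name were). With all libraries, 0 passed the likelihood ratio test. The study called 8 of them for this comparison, so the count is not independent evidence. The median was 1.17 in the lane 2 libraries, where 9 of 10 rose by the likelihood ratio test (0.373% of all genes did), and -0.09 for the lane 1 birds at 1.0% Ca. Within 1.0% Ca, 9 of 10 differed between lanes at an unadjusted p under 0.05 (7.41% of all genes did). Whether lane or the 2 birds made this difference cannot be told apart.

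RSAD2 encodes viperin, an antiviral enzyme, and stood at 34.3, 15.7 and 33.2 CPM at 0.8% Ca. At 1.0% Ca it was at 21.7 and 21.3 CPM in the lane 1 birds and at 109 and 166 CPM in the lane 2 birds. The lane 1 birds were inside the range of the lower diet and the lane 2 birds were more than 3 times above it. The log2 fold change was 1.52 ± 0.81 with all libraries, 2.31 in lane 2 libraries (likelihood ratio adjusted p = 1.3e-06) and -0.36 for lane 1 birds. CMPK2, a mitochondrial nucleotide kinase gene that lies next to RSAD2 on chromosome 3 (CMPK2 at 94575875 to 94584183, RSAD2 at 94589239 to 94594293), had the same shape. It was at 77.4, 80.3 and 143 CPM at 0.8% Ca and at 101, 95.7, 266 and 389 CPM at 1.0% Ca. EIF2AK2, the kinase PKR that senses double-stranded RNA, was at 63.6 to 96.8 CPM at 0.8% Ca. At 1.0% Ca it was at 79.6 and 82.5 CPM in lane 1 birds and at 184 and 201 CPM in lane 2 birds. The birds at 1.2% Ca were all of lane 1 and also varied. In their replicates 1 to 3, RSAD2 was at 52.3, 132 and 21.7 CPM and CMPK2 at 285, 388 and 106 CPM. EIF2AK2 was at 120, 204 and 70.2 CPM there. TLR3, an endosomal receptor for double-stranded RNA, and TRANK1 were the 2 members whose groups did not overlap. Both were higher at 1.0% Ca, and 3.5% of all genes and 11 of the 179 genes with a name were higher without overlap. TLR3 was at 41.8, 65.8 and 63.0 CPM against 71.7, 68.9, 88.6 and 134 CPM, and TRANK1 at 247, 191 and 266 CPM against 280, 273, 408 and 532 CPM. The antiviral zinc finger gene ZC3HAV1 was at 73.4 to 98.7 CPM at 0.8% Ca and at 97.7, 107, 152 and 185 CPM at 1.0% Ca, with a log2 fold change of 0.63 ± 0.27.

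**Figure D3:**
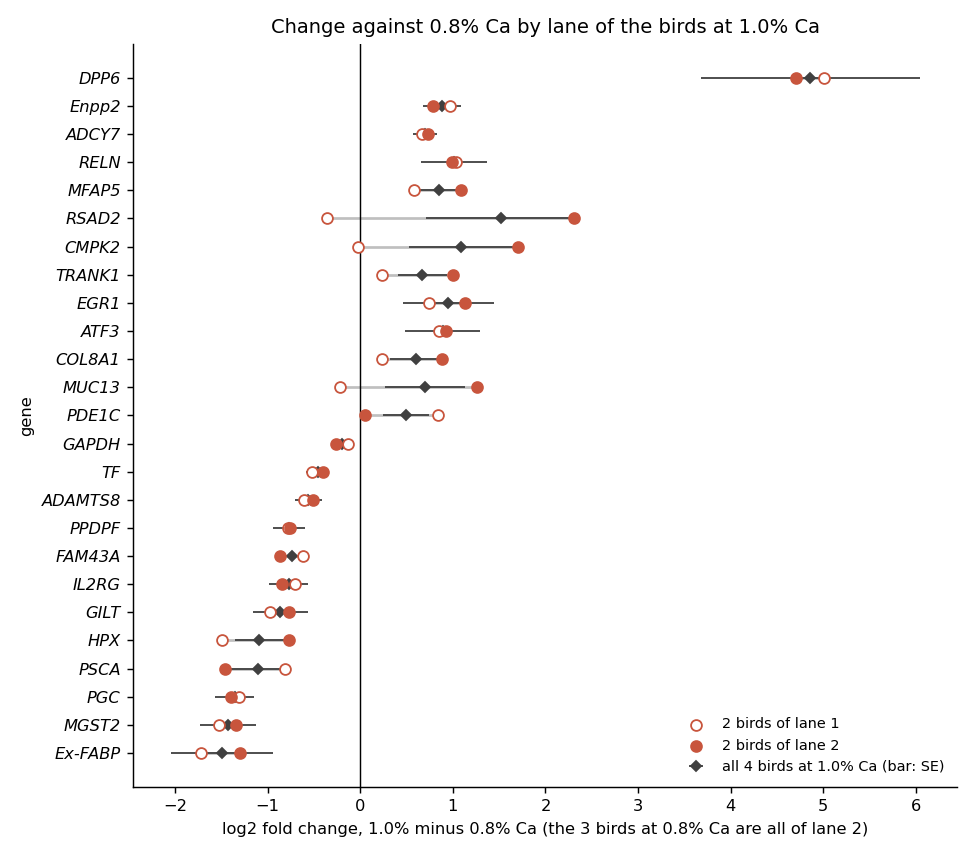
Log2 fold change of 25 named genes at 1.0% against 0.8% Ca for all 4 birds at 1.0% Ca (diamonds, bars are the SE of the quasi-likelihood fit), for the 2 birds of lane 1 (open circles) and for the 2 birds of lane 2 (filled circles). PGC, ADCY7, PPDPF and DPP6 differ little by lane, while RSAD2 lies at -0.36 for lane 1 birds and 2.31 for lane 2 birds.

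Immediate early genes, which cells switch on within minutes of a stimulus, had no common direction, with 4 of 9 measured members of a list of 32 positive and a median log2 fold change of -0.01. EGR1, a zinc finger factor, was at 408, 342 and 249 CPM at 0.8% Ca and at 898, 214, 329 and 1131 CPM at 1.0% Ca. ATF3, a stress-induced factor, was at 58.2, 81.2 and 74.9 CPM at 0.8% Ca and at 195, 62.5, 70.1 and 202 CPM at 1.0% Ca. NFKBIZ, a regulator of NF-kappaB targets, was at 65.7, 82.6 and 87.6 CPM against 157, 82.6, 94.5 and 158 CPM. In all 3 genes replicates 1 and 4 at 1.0% Ca, 1 from each lane, were high, and replicates 2 and 3 were in or near the range of the lower diet. KLF2, an endothelial factor induced by flow, had a negative log2 fold change (-0.35 ± 0.20), with 387, 350 and 292 CPM at 0.8% Ca and 237, 290, 190 and 358 CPM at 1.0% Ca, and its name sits on 2 identifiers. APOLD1, an endothelial gene, was at 132, 64.6 and 32.6 CPM against 35.2, 32.9, 25.5 and 72.4 CPM (log2 fold change -0.87 ± 0.52). OTUD1, a deubiquitinase gene, was highest in replicate 3 at 1.0% Ca (262 CPM), so the order of the birds was not common to the list. Of the 9, NFKBIZ alone had an unadjusted p under 0.05 (log2 fold change 0.64 ± 0.23), beside 2.64% of all genes that were higher, and 5 were in the study's table. The summed level was 1557 to 2499 CPM at 0.8% Ca and 1448 to 3247 CPM at 1.0% Ca.

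Of 15 genes measured out of 50 listed for the extracellular matrix, 11 had a positive log2 fold change. At an unadjusted p under 0.05, 4 were higher and 1 lower (2.64% and 5.84% of all genes were). The likelihood ratio test called only Enpp2, which rose. Enpp2 is the secreted enzyme described above rather than a structural matrix protein, and no other member was called. The median log2 fold change was 0.63, and 10 of the 15 came from the study's table for this comparison, so the count is not independent evidence. The summed level was 1047, 1278 and 1453 CPM at 0.8% Ca and 1603, 1678, 1693 and 2409 CPM at 1.0% Ca, with replicate 1 at 0.8% Ca lowest and replicate 4 at 1.0% Ca highest. The median was 0.48 without the former and 0.34 without the latter. RELN, the secreted glycoprotein reelin, was at 57.7, 111 and 113 CPM at 0.8% Ca and at 196, 188, 208 and 164 CPM at 1.0% Ca (log2 fold change 1.01 ± 0.36). MFAP5, a protein of elastic microfibrils, was at 182, 255 and 318 CPM against 375, 376, 431 and 637 CPM (log2 fold change 0.85 ± 0.28), and it rose in the lane 2 libraries by the likelihood ratio test (adjusted p = 0.0289). SMOC2, a Ca-binding matricellular protein, was at 19.4, 42.2 and 44.4 CPM against 58.5, 53.4, 46.6 and 82.9 CPM. These 3 genes and Enpp2 were higher without overlap between the groups (3.5% of all genes were). ADAMTS8, described below, was lower without overlap (6.69% of all genes were). Of the 179 genes with a name, 11 were higher and 24 lower in this way. COL8A1, a short-chain collagen of vessel walls, was at 87.3, 123 and 141 CPM against 150, 127, 148 and 286 CPM, so that its fold change rested on replicate 4 and went from 0.60 to 0.28 without it. The member that was lower at an unadjusted p under 0.05 was ADAMTS8, a secreted metalloprotease, at 43.4, 39.8 and 37.8 CPM against 22.7, 30.0, 24.3 and 32.2 CPM (log2 fold change -0.56 ± 0.14). The other 3 negative log2 fold changes were those of VCAN (-0.21), SPOCK3 (-0.29) and ADAMTS10 (-0.05), of which the last 2 changed sign under other settings.

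Genes of cell division marked out replicate 1 at 0.8% Ca. All 33 measured members of a list of 54 had positive log2 fold changes, from 0.14 to 0.93 with a median of 0.53, but 0 had an unadjusted p under 0.05. In 32 of the 33 the lowest library was replicate 1 at 0.8% Ca (22.1% of all genes). The summed level was 536 CPM in that bird, 2104 and 1865 CPM in the other 2 at 0.8% Ca, and 2801, 2670, 1327 and 2019 CPM at 1.0% Ca. Without that bird the median was 0.17. In the lane 2 libraries it was 0.16 and for the lane 1 birds 0.82, since the 2 lane 1 birds were the highest and replicate 3 the lowest at 1.0% Ca. ASPM, a spindle pole protein, was at 18.4, 84.7 and 80.8 CPM at 0.8% Ca and at 145, 117, 63.0 and 88.1 CPM at 1.0% Ca. STMN1, a microtubule-destabilising protein of dividing cells, was at 33.2, 148 and 149 CPM against 234, 211, 111 and 177 CPM. The condensin subunit gene NCAPG2 was at 4.23, 13.1 and 17.6 CPM against 28.2, 29.9, 11.03 and 20.6 CPM, and POLQ, a repair polymerase gene, at 8.46, 29.5 and 27.2 CPM against 36.5, 40.7, 26.8 and 31.1 CPM. In each of these genes the other 2 birds at 0.8% Ca lay within the range of the birds at 1.0% Ca.

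**Figure D4:**
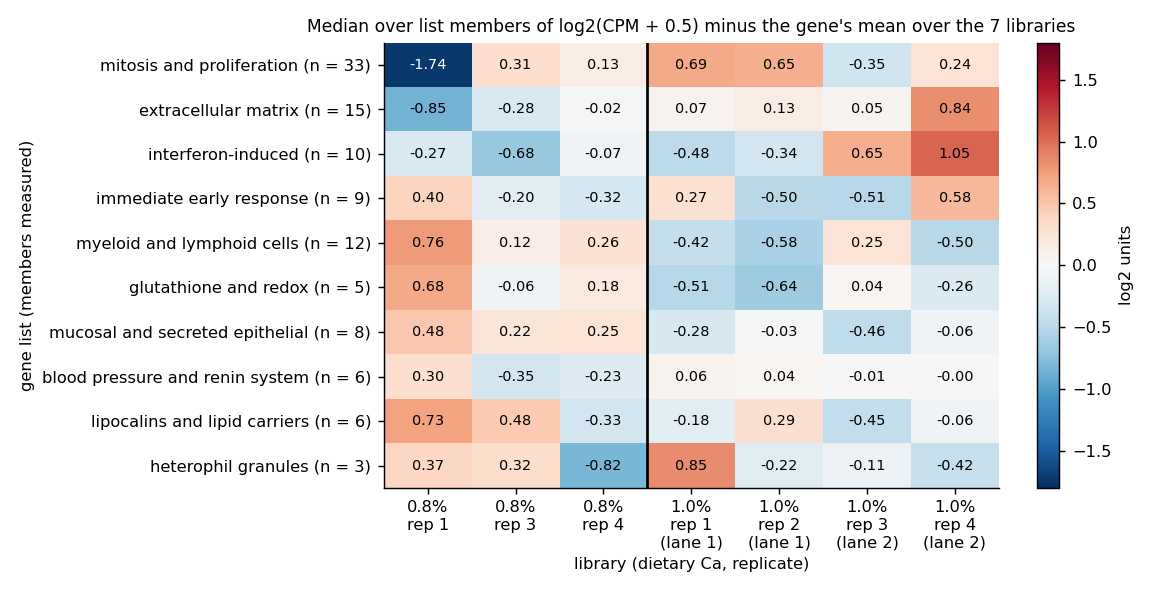
Each cell gives the median over the measured members of a gene list of log2(CPM + 0.5) minus the gene's mean over the 7 libraries, in log2 units, for 10 lists (rows, with members measured) and 7 libraries (columns). Replicate 1 at 0.8% Ca has -1.74 for mitosis and 0.76 for myeloid and lymphoid genes, and replicates 3 and 4 at 1.0% Ca have 0.65 and 1.05 for interferon-induced genes.

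Replicate 1 at 0.8% Ca had the highest level in 3 of 5 redox genes and 1 of 2 glycolysis genes (17.4% of all genes). These lists are too short to set against that share. MGST2 and GAPDH were highest in replicate 3 at 0.8% Ca and CHAC1 in replicate 2 at 1.0% Ca. Of these 5 redox genes measured out of 27, 2 were lower at an unadjusted p under 0.05 (5.84% of all genes were), MGST2 among them, and 3 were in the study's table. GSTA3, a glutathione transferase of detoxification, was at 52.4, 32.4 and 33.7 CPM at 0.8% Ca and at 18.9, 17.3, 27.96 and 21 CPM at 1.0% Ca, with no overlap (log2 fold change -0.89 ± 0.39). XDH, the xanthine dehydrogenase that makes uric acid, was at 70.3 CPM in replicate 1 at 0.8% Ca, at 11.6 and 18.1 CPM in the other 2 birds and at 10.9 to 20.6 CPM at 1.0% Ca. Its log2 fold change of -1.21 shrank to -0.05 without that bird. LDHA, the lactate dehydrogenase subunit, was at 458, 233 and 301 CPM against 187, 163, 300 and 189 CPM. GAPDH, a common reference gene, was at 619, 645 and 603 CPM against 537, 596, 486 and 551 CPM. Its groups did not overlap, by a margin of 7 CPM, and the log2 fold change was -0.20 ± 0.10, with an unadjusted p above 0.05.

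Of 28 genes listed for blood pressure control, 6 were measured, of which 5 were in the study's table, so the counts here are not independent evidence. ADCY7 and DPP6, described above, rose, and APLNR and PRCP were lower at an unadjusted p under 0.05 (2.64% and 5.84% of all genes). For DPP6 the study could not establish a direct effect on blood pressure and proposes that it could be related indirectly. A part of ADCY7 in blood pressure was not tested either. APLNR, the receptor of the vessel peptide apelin, was at 68.3, 56.1 and 48.8 CPM at 0.8% Ca and at 40.8, 30.8, 28.6 and 29.3 CPM at 1.0% Ca. The groups did not overlap (log2 fold change -0.84 ± 0.29), and APLNR fell in the lane 2 libraries by the likelihood ratio test (log2 fold change -0.99, adjusted p = 0.00317). PRCP, a peptidase that cleaves angiotensin, was at 156, 125 and 90.4 CPM against 63.7, 74.8, 84.5 and 93.4 CPM, overlapping through replicate 4 of each diet. PDE1C, a Ca- and calmodulin-dependent phosphodiesterase of cyclic nucleotides, was at 22.9, 19.1 and 20.99 CPM at 0.8% Ca, at 37.0 and 38.1 CPM in the lane 1 birds and at 23.1 and 20.3 CPM in the lane 2 birds. Its fold change was 0.84 for lane 1 birds and 0.05 for lane 2 birds, and lanes within 1.0% Ca differed at an unadjusted p under 0.05. The remaining member, WNK4, was at 202, 64.3 and 91.9 CPM at 0.8% Ca and at 67.0, 73.4, 246 and 107 CPM at 1.0% Ca. Its log2 fold change was 0.05 ± 0.56 with all libraries, 0.57 in the lane 2 libraries and -0.76 for lane 1 birds. Endothelial markers, 3 of 12 measured, were APLNR itself, KLF2 and APOLD1, all highest in replicate 1 at 0.8% Ca (17.4% of all genes were). They summed to 374 to 587 CPM at 0.8% Ca and to 244 to 460 CPM at 1.0% Ca, a sum not separate from APLNR. The part of endothelial cells in the APLNR values was not tested. The only red blood cell marker measured, TSPO2, was at 6.12 to 13.5 CPM and 11.02 to 17.9 CPM.

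Beyond function, the genes that leaned to either diet differed in length and in chromosome. The 712 genes lower at 1.0% Ca had a median exon length of 1651 bases, the 322 higher genes 3009 bases, and the 11153 others 2321 bases. In the 20% of genes with the shortest exons, up to 1218 bases, 9.54% were lower and 1.52% higher, whereas in the 20% with the longest, from 4133 bases, 2.91% were lower and 4.02% higher. The median log2 fold change went from -0.06 in the shortest 20% to 0.06 in the longest. On chromosomes 1 to 5, the large chromosomes of the chicken, 3.34% of 5235 genes were lower and 3.55% higher. On chromosomes 11 to 28, which are small, gene-dense and rich in G and C, 8.89% of 3871 genes were lower and 1.39% higher. On the small linkage groups and unplaced scaffolds, with W and mitochondrial genes among the 575, 15.7% were lower and 0.87% higher, with a median log2 fold change of -0.18. Of the 22 genes called by the likelihood ratio test, 8 were among the 5235 on chromosomes 1 to 5, 1 among the 1927 on chromosomes 6 to 10, 11 among the 3871 on chromosomes 11 to 28 and 2 among the 575.

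The tilt by chromosome class was also present without the most distant bird at 0.8% Ca and within lane 2. The tilt by length was present within lane 2 and was not examined without that bird. The median deviation of scaffold genes from their own mean was 0.22, 0.11 and 0.10 log2 units in replicates 1, 3 and 4 at 0.8% Ca and -0.02, -0.03, -0.06 and -0.07 in replicates 1 to 4 at 1.0% Ca. It was largest in replicate 1 at 0.8% Ca, and the diets did not overlap. Without that bird the median log2 fold change of these genes was -0.14, in the lane 2 libraries it was -0.22, and between the lanes within 1.0% Ca it was 0.03. On chromosomes 1 to 5 it was 0.03 without that bird and 0.04 in lane 2, and on chromosomes 11 to 28 -0.04 and -0.05. In lane 2 it went from -0.09 in the shortest 20% to 0.06 in the longest. In median deviation the diets did not overlap on chromosomes 11 to 28 or in the shortest 20%. They overlapped on chromosomes 1 to 10 and in the longest 20%, through replicate 3 at 1.0% Ca. In a setting chosen after the data were seen, each library was adjusted for its median deviation in every 20% band of length. It was next adjusted for the median left in every chromosome class. With both adjustments 386 genes were higher and 556 lower at an unadjusted p under 0.05. The likelihood ratio test then called 12 genes, 11 of them among the 22. PGC, FAM43A, MGST2, ADCY7 and the RPS29 locus gene were kept, whereas PPDPF (adjusted p = 0.132), Enpp2 (0.115) and DPP6 (0.0574) were not, with log2 fold changes of -0.64, 0.81 and 4.79 there against -0.77, 0.88 and 4.86 with no such adjustment. RNA quality and G and C content were not tested.

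**Figure D5:**
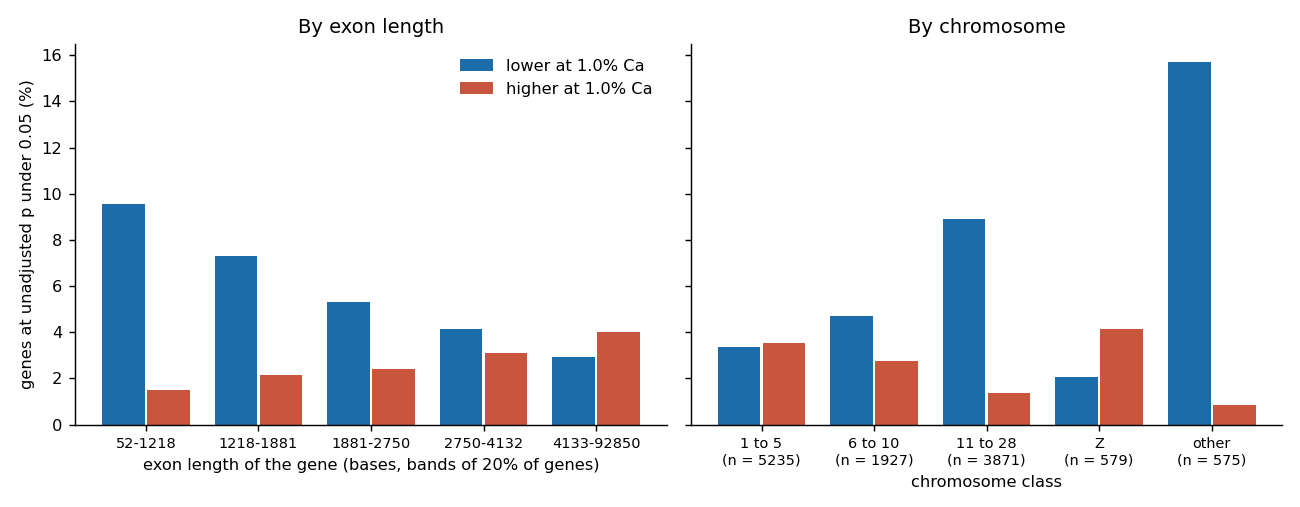
Share of tested genes (percent, vertical axis) at an unadjusted quasi-likelihood p under 0.05 that were lower (blue) or higher (red) at 1.0% Ca, by 20% bands of exon length in bases (left) and by chromosome class (right). Genes lower at 1.0% Ca make up 9.54% of the shortest band and 15.7% of genes on scaffolds and other small sequences, against 2.91% of the longest and 3.34% on chromosomes 1 to 5.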

How the data were processed

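Kidney mRNA of each bird was sequenced as read pairs. Per the methods and file headers, the authors trimmed reads with Trimmomatic 0.32, used HISAT2 2.0.4 for alignment to Galgal4 and featureCounts 1.5.0-p3 for counting fragments in exons of the Ensembl release 84 genes. The deposited values are raw whole-number counts per gene and bird, with no normalization, next to a column of exon lengths in bases. No strand option was set, so overlapping genes on opposite strands could not be separated, and the labels name a stranded kit that the methods do not. Lanes were read from the column names and the study's read table, although the methods speak of a single lane.

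Low-count genes were dropped by filterByExpr and libraries scaled by TMM (R 4.3.3, edgeR 4.0.16). The 10 libraries, including 3 at 1.2% Ca that share the spread estimate, were fitted with 1 coefficient per diet, and 1.0% minus 0.8% Ca was tested by the quasi-likelihood and the likelihood ratio test, two-sided, with Benjamini-Hochberg adjustment over all genes tested and a threshold of 0.05. SEs derive from the quasi-likelihood F. An exact permutation test of 3 against 4 birds with a doubled one-sided p cannot go below p = 0.0571 and was not used for single genes. DESeq2 1.42.0, limma-voom (limma 3.58.1), other scalings and filters, lane or replicate number as terms and fits without single libraries were the alternatives.

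Genes were named only from the study's tables and loci. The text names every named gene called by the likelihood ratio test, and GAPDH. The rule also took named genes among the 10 largest changes each way without overlap. It further took up to 6 members per list with the smallest p, and the listed genes with the smallest p. Not all of these are described. Left out were, among others, Worthington (log2 fold change -2.10 ± 0.71), FOS, FABP7, PDK4, MGST1, FER1L6, FCGBP, CENPE, NCAPG, GAL1, GAL2 and LECT2. LPL and CHAC1, which met the rule, and OTUD1, VCAN, SPOCK3 and ADAMTS10, list members outside it, were added after their values were seen. Members and lists were chosen with earlier results of these data known. The study's own comparison columns were not used. Birds are separate animals, and counting error at 6.13 to 7.33 counts per CPM limits genes near 1 CPM. Figures and tables used Python 3.11.15, pandas 2.3.3 and Matplotlib 3.10.9.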

Additional observations from a re-analysis of the deposited data

Results flagged for a closer look

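Among 62 of the named genes, the 4 libraries at 1.0% Ca were examined for a bird far from the others with Dixon's test. That test marks about 1 in 20 groups by chance, and 3 genes were past its limit, near what that rate gives over 62 genes. COL8A1 stood at 286 CPM in replicate 4 and at 150 CPM in the next bird, a gap of 0.855 of the whole range. ENSGALG00000004559 stood at 39.6 CPM in replicate 1 and at 38.2 CPM in the next bird, a gap of 0.912 of a range of under 2 CPM. OTUD1 stood at 262 CPM in replicate 3 and at 127 CPM in the next bird, a gap of 0.848 of the whole range. OTUD1 had been added after its values were seen, so its mark is not independent of that choice.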

How the results depend on the processing

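Of 1426 refitted log2 fold changes of 62 named genes (WNK4 was not one of them), 17 changed sign, in 4 genes with no call. OTUD1 became positive with DESeq2 (0.0094), RLE factors (0.0098), no filter (0.0090), lane as a covariate (0.33) and the lane 2 libraries (0.33). SPOCK3 did with lane as a covariate (0.087) and the lane 2 libraries (0.086), and ADAMTS10 with the replicate block (0.0023). Without single libraries OTUD1 ran from -0.39 to 0.40, SPOCK3 from -0.73 to 0.81, ADAMTS10 from -0.14 to 0.034 and CHAC1 from -0.044 to 1.02. List members outside the 62 changed sign as well. Examples are LECT2 (0.09 to -0.28), GAL2 (0.20 to -0.12) and FCGBP (0.76 to -0.40), from all libraries to the lane 2 libraries. FOS went from 0.49 to -0.03 without replicate 4 at 1.0% Ca. The quasi-likelihood count of 0 became 31 with DESeq2, 22 with the likelihood ratio test, 1 at an adjusted p under 0.1, 1 (DPP6) with the 7 compared libraries alone, and 0 to 2 over fits without single libraries, 2 (DPP6 and ENSGALG00000027902) without replicate 2 at 1.2% Ca. The 22 likelihood ratio calls became 8 with no filter on low counts, 44 with lane as a covariate, 8 with a replicate block, 59 with the 7 libraries, 90 with the lane 2 libraries, 42 at an adjusted p under 0.1, 12 with length and chromosome offsets, and 3 to 50 without single libraries. The 322 higher genes became 202 with upper-quartile factors and 537 with lane as a covariate, and ranged from 247 to 449 without single libraries; the 712 lower genes ranged from 490 to 781. The lane 2 comparison gave 90 likelihood ratio calls against 0, and lane within 1.0% Ca 1 against 0. The causes were not tested.

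Replicate numbers 1 and 3 did not pair the birds, while the birds numbered 4 were each the best match of the other across diets. Same-numbered birds deviated from their diet means with correlations across genes of -0.02, -0.37 and 0.31 for numbers 1, 3 and 4, and replicate 1 at 0.8% Ca was most like replicate 3 at 1.0% Ca (0.474). With the replicate block, 219 genes were higher and 501 lower at an unadjusted p under 0.05. All birds at 0.8% Ca were of lane 2, so only 2 birds at 1.0% Ca were free of lane differences.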
